A study of Bos taurus with 11 samples.

Results

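The interferon response genes are the genes through which a cell detects viral nucleic acid, receives interferon and answers it. A list of 44 of them was taken by symbol from the gene annotation of the deposited interval table. Of these, 42 were listed beside at least 2 intervals that placed their start, out of 23988 genes with such a start and 25197 listed symbols in all, and IFI44L and BST2 had no listing. The 42 genes comprised 3 sensors of viral RNA, 4 receptor chains, 8 transcription factors, 2 inhibitors, 21 effectors and 4 genes of antigen presentation.

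The data came from rumen epithelial primary cells (REPC), cultured lining cells of the cattle forestomach, isolated from 1 Holstein bull calf that was 2 weeks old and had received milk replacer alone. The butyrate group had 5 mM butyrate in the medium for 24 h and the control group had none. Butyrate is a short-chain fatty acid of rumen fermentation and inhibits histone deacetylases. ChIP-seq was run for H3K4me3, H3K27ac, H3K4me1, H3K27me3 and the boundary protein CTCF, with 1 butyrate library and 1 control library for each target, beside 1 input library. All cells thus shared the animal, breed and milk diet, and no group had a replicate, so no difference below carries a test and no spread between samples is known.

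As background, RNA sensors of the RIG-I type start a cascade that ends in the factors IRF3 and IRF7, which switch on interferon genes. Secreted type I interferon binds IFNAR1 and IFNAR2, type II interferon binds IFNGR1 and IFNGR2, and both signal through STAT proteins, which with IRF9 bind the start regions of interferon-stimulated genes. Many stimulated genes are kept at a low basal level until the signal arrives, and epithelial cells are among the first cells to use them. H3K4me3 marks gene starts, H3K27ac active starts and enhancers, H3K4me1 enhancers and the flanks of starts, and H3K27me3 regions held by Polycomb.

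Promoters spanned 2 kb upstream and downstream of each gene start on cattle assembly UMD3.1, and a promoter was called marked in a library if an interval called in that library reached it. Its signal was the average tag density of the strongest such interval. A missing interval means that none was called, not that the mark was absent: the lowest average signal of any H3K27ac interval was 14.0 in the butyrate library and 12.8 in the control library. Signals are averages over intervals whose length can differ between libraries. The peak signal is the highest density of any interval that reached the promoter. It is added for members where its direction was the reverse, and for some others. The table gives no read totals, and those listed by the study were not used here. A lower signal could come from fewer marked cells or from less mark per cell, which cannot be told apart in a pool of cells.

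As a check of the cell label, 18 of 20 markers of stratified epithelium had a promoter with H3K4me3 after butyrate (90%) and 12 of 20 in control (60%). Of all promoters, 61.6% had it after butyrate and 56.5% in control, so the epithelial share in control was near that of all promoters. KRT5, KRT8 and DSP were marked in both libraries and TP63 and CDH1 in neither. Of immune cell markers, 3 of 14 with a start were marked after butyrate (CD14, CD8A and SPI1) and 2 of 14 in control (CD14 and CD8A). Those without H3K4me3 in either library included PTPRC, CD3E and MS4A1. Of fibroblast markers, 5 of 8 were marked after butyrate and 6 of 8 in control (75%), among them COL1A1 and COL1A2. Of endothelial markers, 2 of 8 were marked after butyrate and 1 of 8 in control. The part of these cells in the values below was not tested.

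Most interferon response genes had H3K4me3 at the start under both conditions. H3K4me3 was found at 34 of 42 member promoters after butyrate (81.0%) and at 33 in control (78.6%), beside 61.6% and 56.5% of all promoters. The only change of state was at RSAD2, whose product viperin makes a chain-terminating nucleotide against viruses. Of all promoters with H3K4me3 in either library, 8.64% were marked after butyrate only and 0.377% in control only. Since neighbouring genes can share an interval, the marked members rested on 50 distinct H3K4me3 intervals after butyrate and on 48 in control.

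Among the 33 member promoters marked in both libraries, the average H3K4me3 signal was higher after butyrate at 19 and lower at 14. Their log2 ratios (butyrate over control) had a median of 0.07 and a range of -0.50 to 0.74, and the median over all promoters was -0.01. None of the 33 differed by 2-fold, as 4.04% of all promoters did. The H3K4me3 signal of these genes thus lay within 2-fold of its control level throughout.

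**Figure D1:**
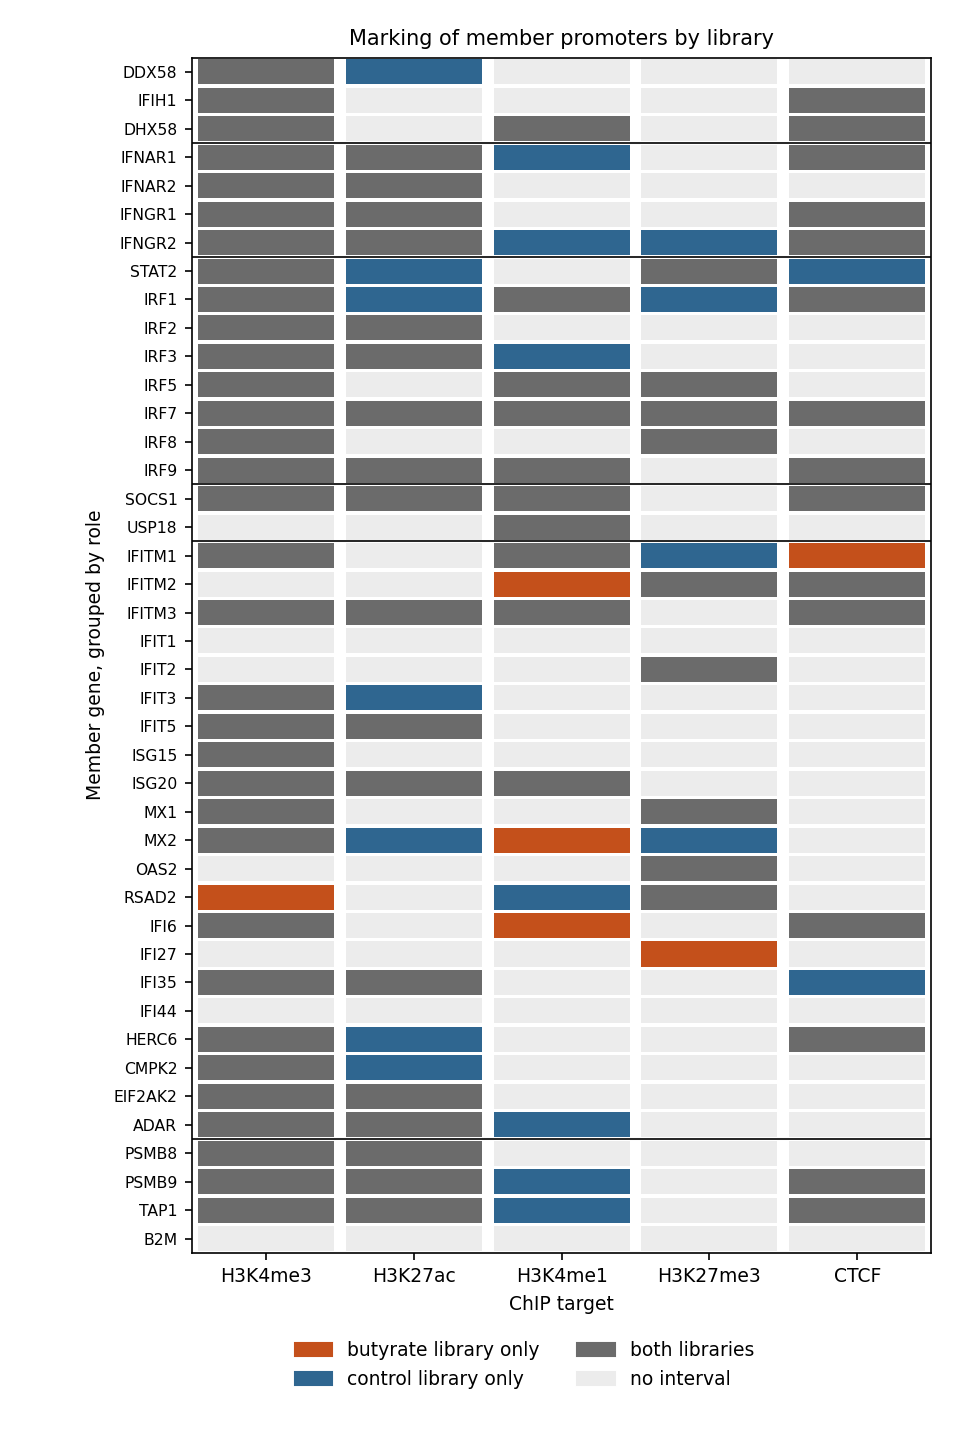
Marking of the 42 member promoters (rows, grouped by role and separated by lines) by 5 ChIP targets (columns). Colour gives the library that held an interval, and single-library cells are mostly control only, with 7 for H3K27ac and 7 for H3K4me1.

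The sensors came first in the pathway and were marked without exception. DDX58 (RIG-I, which binds viral RNA with a triphosphate end) had an H3K4me3 signal of 99.9 after butyrate and 95.5 in control. IFIH1 (MDA5, a sensor of long double-stranded RNA) had 55.2 after butyrate and 59.4 in control. DHX58 (LGP2, a regulator of the other sensors) had 45.6 after butyrate and 43.7 in control, from different intervals on either side of the start. By average signal of the strongest interval, all 3 thus stayed near their control level, DDX58 at the highest signal of the group. The peak signal of IFIH1 was lower after butyrate, with 85 after butyrate and 111 in control, a log2 ratio of -0.39. At DHX58 the interval before the start had 32.5 after butyrate and 43.7 in control, and the one over the start had 45.6 after butyrate and 41.8 in control.

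The 4 receptor chains were all marked in both libraries. IFNAR2, a chain of the type I receptor, had an H3K4me3 signal of 132 after butyrate and 148 in control, which was the third highest mean among members. IFNAR1, the other type I chain, had 101 after butyrate and 103 in control. By peak signal both type I chains were higher after butyrate. IFNAR2 had 299 after butyrate and 287 in control, and IFNAR1 had 332 after butyrate and 316 in control. IFNGR2 had 122 after butyrate and 118 in control, and its partner in the type II receptor, IFNGR1, had 65.1 after butyrate and 84.3 in control. IFNGR1 had the largest difference of the 4 by average signal, a log2 ratio of -0.37, but its peak signals of 156 after butyrate and 164 in control gave a log2 ratio of only -0.07.

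All 8 transcription factors carried H3K4me3, and 6 had a higher average signal after butyrate. IRF5, which acts downstream of Toll-like receptors in immune cells, had 149 after butyrate and 114 in control. IRF7, the amplifier of type I interferon production, had 145 after butyrate and 122 in control. IRF1, an early target of type II interferon, had 105 after butyrate and 91.2 in control. All 3 were thus higher after butyrate. IRF8, a factor of myeloid cells, had 98.5 after butyrate and 85.9 in control, and IRF2, an antagonist of IRF1, had 137 after butyrate and 123 in control.

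The exceptions were IRF3 and IRF9. IRF3, the factor that the sensors activate directly, had 81.3 after butyrate and 105 in control, from an interval that also reached the promoter of BCL2L12. IRF9, the DNA-binding part of the complex formed with STAT2, had 42.4 after butyrate and 52.3 in control. STAT2 itself had 83.4 after butyrate and 78.8 in control, but its peak signal was 150 after butyrate and 155 in control. IRF3 at -0.37 and IRF9 at -0.30 were among the 4 lowest log2 ratios of average H3K4me3 signal in the list.

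Of the inhibitors, SOCS1, which blocks the receptor kinases, had 119.8 after butyrate and 107 in control. Its peak signal was 219 after butyrate and 221 in control. USP18, which removes ISG15 from proteins and blocks the type I receptor, had no H3K4me3 in its promoter in either library. Its nearest H3K4me3 interval lay 11310 bp before the start after butyrate and 12366 bp before it in control.

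The effectors spanned the whole range of the list. The strongest H3K4me3 interval, of 240.3 after butyrate and 202 in control, was shared by IFITM3 and IFITM1, membrane proteins that hinder viral entry. It lay downstream of the IFITM3 start, and it reached the IFITM1 window only at its edge, 1904 bp after that start in the butyrate library and 1914 bp in control. At the IFITM3 start itself the intervals had 60.1 after butyrate and 55.8 in control. The high value of IFITM1 is thus that of its neighbour's region.

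At the low end stood several of the classic stimulated genes. ISG15, a ubiquitin-like protein that is attached to other proteins, had an H3K4me3 signal of 41.1 after butyrate and 45.6 in control. IFIT3, of the family that binds foreign RNA, had 33.3 after butyrate and 35.4 in control. IFI6, a mitochondrial survival protein, had 30.3 after butyrate and 32.3 in control, but its peak signal was 53 after butyrate and 46 in control. RSAD2 had 29.1 after butyrate and no interval in control, which placed it just below these genes.

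MX1 and ISG20 had the highest H3K4me3 ratios, and MX2 the lowest by average signal. MX1, a dynamin-like GTPase that traps viral particles, had 56.9 after butyrate and 34.1 in control, a log2 ratio of 0.74. ISG20, an exonuclease of viral RNA, had 92.2 after butyrate and 66.5 in control, a log2 ratio of 0.47. MX2, the neighbour of MX1 at a distance of 47537 bp on chromosome 1, had 71.2 after butyrate and 101 in control, a log2 ratio of -0.50. The 2 MX genes thus lay at opposite ends of the list by average signal. By peak signal MX1 was again the highest, at a log2 ratio of 0.93, and MX2 was the fourth lowest, at -0.36, with IRF9 lowest at -0.46. A value as high as 0.74 was inside the central range of all promoters, whose 95th percentile was 0.91, while -0.50 was beyond their 5th percentile of -0.45.

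The other marked effectors differed less. IFIT5, a family member that binds a range of RNAs, had 93.4 after butyrate and 86.5 in control, from an interval that also reached the promoter of LIPA. CMPK2, a mitochondrial nucleotide kinase, had 67.7 after butyrate and 59.6 in control, from different intervals. Over the CMPK2 start itself the signal was 67.7 after butyrate and 56.4 in control. EIF2AK2 (PKR, which halts translation on double-stranded RNA) had 78.2 after butyrate and 93.4 in control. ADAR, which edits double-stranded RNA, had 116 after butyrate and 126 in control, and HERC6, a ligase of the ISG15 system in the mouse, had 129.6 after butyrate and 131 in control. IFI35 had 86.1 after butyrate and 103 in control, but from an interval that also reached the promoter of RPL27, with its summit outside the IFI35 window in both libraries. The interval over the IFI35 start had 39.4 after butyrate and 52.3 in control. Both IFI35 intervals were thus lower after butyrate.

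The average H3K4me3 signal of 3 antigen presentation genes was higher after butyrate. PSMB8, a catalytic subunit of the immunoproteasome, had 136 after butyrate and 101 in control. PSMB9, another such subunit, and TAP1, the peptide transporter, start 122 bp apart and share their intervals, which had 129 after butyrate and 94.4 in control. All 3 genes lie within one stretch of chromosome 23, with PSMB8 and PSMB9 starting 9379 bp apart. Their log2 ratios of 0.43, 0.44 and 0.44 were among the 5 highest of the list but stand for only 2 places. By peak signal PSMB8 differed little, with 213 after butyrate and 205 in control, from an interval of 1540 bp after butyrate and 2392 bp in control. The peak signal of the PSMB9 and TAP1 region was 267 after butyrate and 195 in control. B2M, the light chain of class I molecules, had no marked promoter for any of the 5 targets, and its 2 listings placed its start on chromosome 10. The nearest H3K4me3 interval lay 13398 bp after that start with 147 after butyrate, and 13365 bp after it with 151 in control, and was annotated to a provisional locus.

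**Figure D2:**
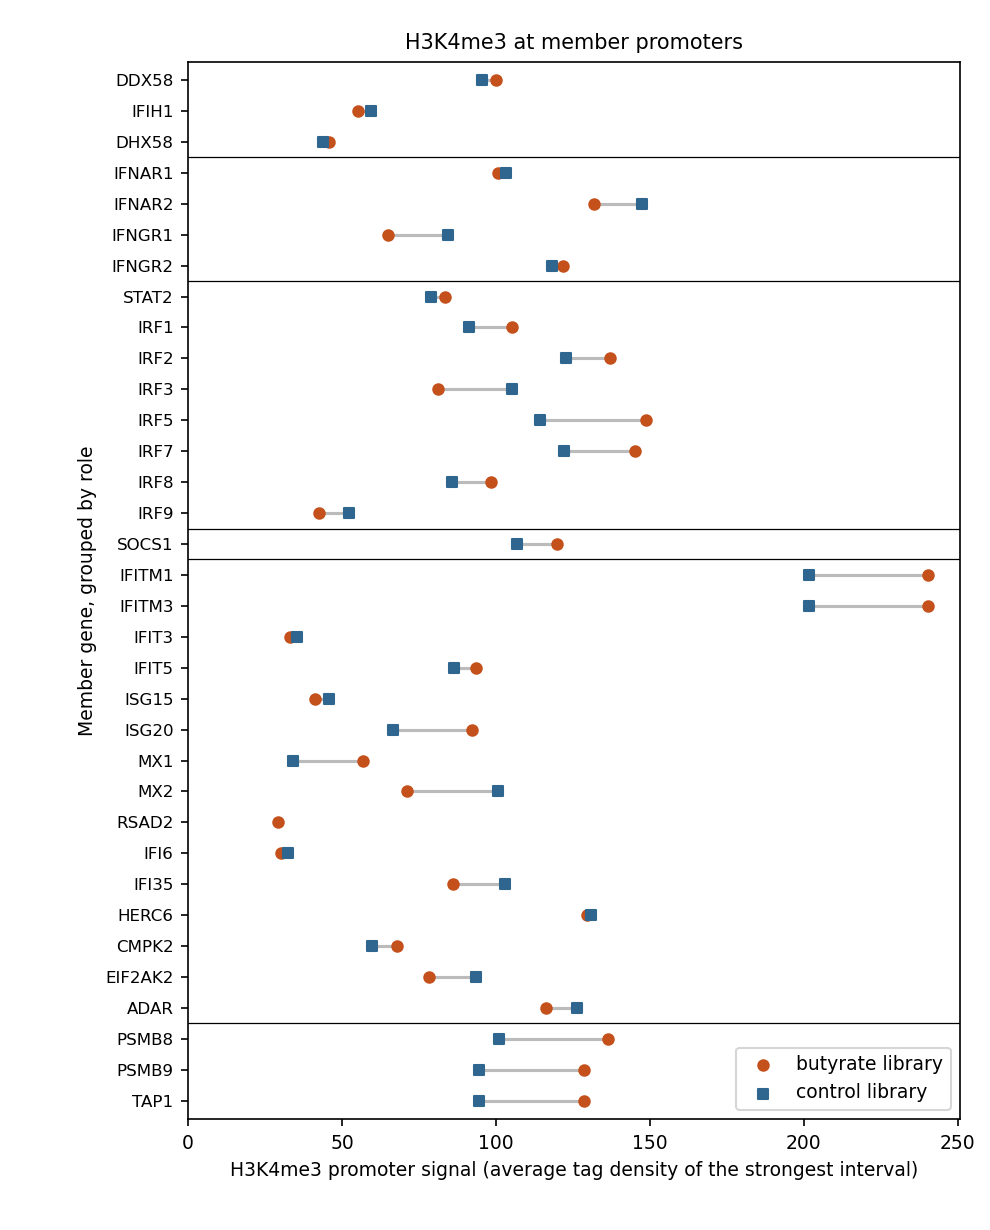
H3K4me3 promoter signal (x axis, average tag density of the strongest interval) of the 34 members marked in either library, by role, with circles for the butyrate library and squares for the control library. RSAD2 has a butyrate value only, at 29.1, and the shared IFITM1 and IFITM3 interval stands apart at 240.3 after butyrate and 202 in control.

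After butyrate 8 of the 42 members had no H3K4me3 in the promoter, and they were USP18, IFITM2, IFIT1, IFIT2, OAS2, IFI27, IFI44 and B2M. For IFITM2 the nearest interval after butyrate began 2114 bp before the start, just outside the window, with a signal of 31.1, against 9589 bp and a signal of 25.1 in control. For IFI27, whose product is mitochondrial, an interval 15746 bp after the start had a signal of 86.7 after butyrate, while in control the nearest one, at 16022 bp, had 16.0, and both were also annotated to IFI27L2. OAS2, a synthetase of the activator of RNase L, had its nearest interval 37165 bp after the start in the butyrate library and 37150 bp after it in control. The IFIT, IFITM and OAS genes belong to families of similar copies, and since the study kept uniquely aligned reads, an unmarked copy cannot be told apart from one that few reads could be placed on.

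H3K27ac at these genes was lower after butyrate, as it was over the promoters of the genome. It was called at 18 of 42 member promoters after butyrate (42.9%) and at 25 in control (59.5%), beside 34.7% and 47.1% of all promoters. No member gained the mark and 7 of the 25 (28.0%) had it in control only, against 3.9% of all promoters marked after butyrate only and 29.2% in control only. The log2 ratios of all promoters marked in both had a median of -0.78, and those of the 18 members one of -0.81. Relative to the median of all promoters, 7 of the 18 were higher and 11 lower. The members' median was 0.011 when the libraries were scaled on their top 10% of promoters, so the direction of the shift depends on a scaling that the sources do not state. Of them, 8 (44.4%) were at least 2-fold lower and none was 2-fold higher, while 33.7% of all promoters were lower by this margin and 0.191% were higher by it. Centred on the median of all promoters, 0 members differed by 2-fold, and all promoters that did numbered 487 in place of 2668. With peak signal 12 of the 18 members did, as did 5137 of the 7865 promoters marked in both.

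The 7 members with H3K27ac in control only were 1 sensor, 2 transcription factors and 4 effectors. HERC6 had a control signal of 40.4, and STAT2, the partner of IRF9, had 34.1. IRF1 had 32.1, MX2 26.95 and DDX58 24.3. CMPK2 had 22.6, and IFIT3 had 16.5, not far above the lowest signal of any H3K27ac interval in that library. All 7 had H3K4me3 called at the promoter in both libraries, so the lost call was that of acetylation. At MX2 the H3K4me3 also differed, with an average signal of 71.2 after butyrate and 101 in control. An H3K4me3 interval lay over the MX2 start in control only.

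Among members marked in both, ADAR had the largest difference, with an H3K27ac signal of 23.5 after butyrate and 79.1 in control, a log2 ratio of -1.75 that lay below the 5th percentile of all promoters at -1.60. IRF7 had 27.9 after butyrate and 76.5 in control, a log2 ratio of -1.46. IFIT5 had 22.2 after butyrate and 51.9 in control, and IFNGR1 had 28.0 after butyrate and 63.7 in control. These 4 were the lowest ratios of average signal in the list. The remaining members at least 2-fold lower were ISG20, with 35.7 after butyrate and 78.5 in control, and the PSMB8, PSMB9 and TAP1 group.

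In the antigen presentation genes the average signals of the 2 marks thus ran in opposite directions. PSMB8 had an H3K27ac signal of 22.1 after butyrate and 47.1 in control, and the region of PSMB9 and TAP1 had 20.2 after butyrate and 44.3 in control, while the average H3K4me3 signal of the same promoters was higher after butyrate. ISG20, IRF7 and IFIT5 showed the same contrast, with a higher average H3K4me3 signal and at least 2-fold less H3K27ac. Lower H3K27ac was common, as 33.7% of all promoters marked in both libraries were at least 2-fold lower. Centred on the median of all promoters, none of these members was 2-fold lower. The share of all promoters with this contrast was not counted.

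At 4 members the average H3K27ac signal was about the same under both conditions, which relative to the shift of all promoters is high. IFNAR2 had 29.6 after butyrate and 26.4 in control, a log2 ratio of 0.17 that was below the 95th percentile of all promoters at 0.20. IFITM3 had 54.6 after butyrate, the highest butyrate value of the list, and 53.3 in control. Its peak signal was 67 after butyrate and 73 in control. IFI35 had 21.8 after butyrate and 21.5 in control, but its summit lay 1023 bp before the start after butyrate and 97 bp after it in control. The butyrate interval of IFI35 ended 681 bp before the start, which the control interval covered. IRF9 had 27.4 after butyrate and 27.8 in control, from different intervals around the start. The equal averages of IFI35 and IRF9 thus do not compare 1 place. Peak signals of IRF9 were 36 after butyrate and 55 in control, and those of IFI35 were 25 after butyrate and 32 in control, so these 2 were lower by that measure. Of the type I receptor chains, IFNAR2 therefore kept its level while IFNAR1 had 33.0 after butyrate and 57.0 in control. Other members with intermediate ratios included IRF2, with 43.7 after butyrate and 66.1 in control, and EIF2AK2, with 40.2 after butyrate and 59.9 in control.

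**Figure D3:**
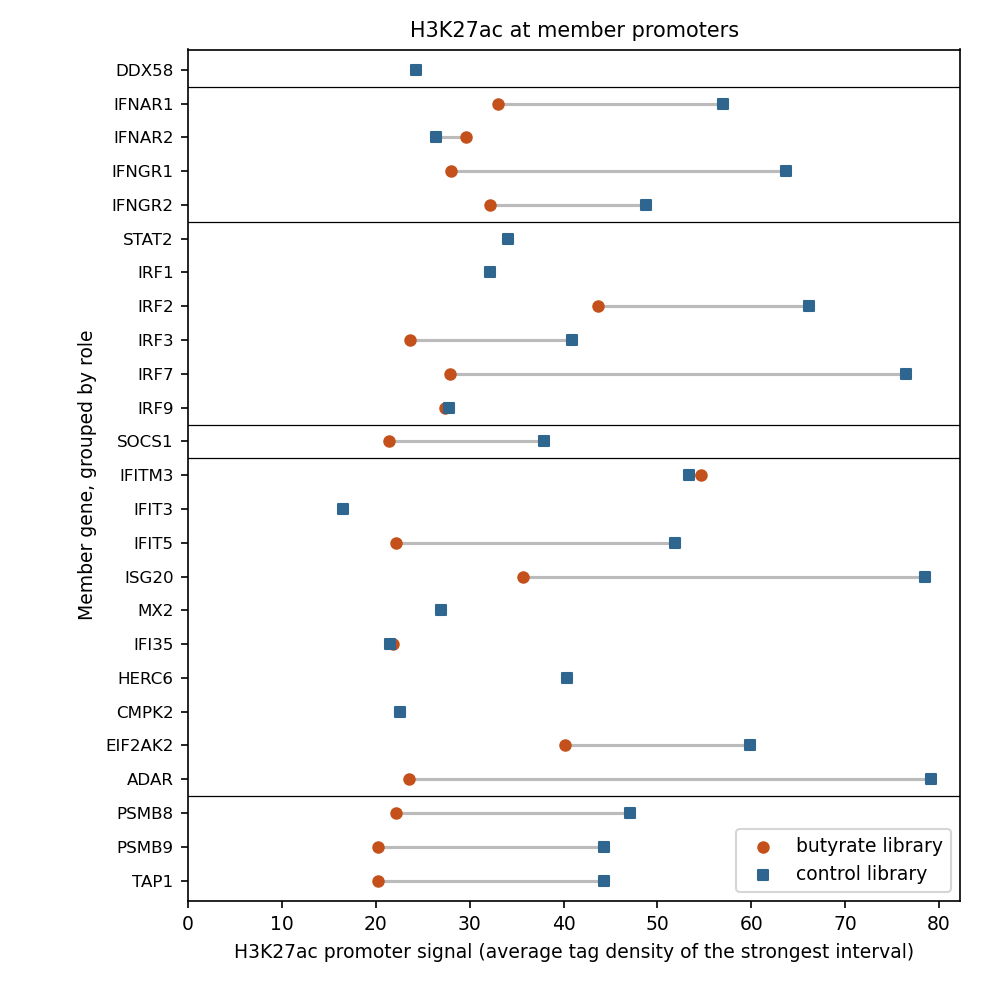
H3K27ac promoter signal (x axis, average tag density of the strongest interval) of the 25 members marked in either library, by role, with circles for the butyrate library and squares for the control library. The 7 genes with a square alone had no interval after butyrate, and ADAR, IRF7 and ISG20 have the widest gaps, with control values of 79.1, 76.5 and 78.5.

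The acetylated stretches were also shorter after butyrate. In the 18 members marked in both libraries, the summed length of H3K27ac intervals reaching the promoter had a median of 670.5 bp after butyrate and 1379 bp in control, and it was shorter after butyrate in 17 of 18. Over all promoters marked in both, the medians were 828 bp after butyrate and 1897 bp in control, and 88.5% were shorter after butyrate. IRF9 was the exception, with 5 short intervals after butyrate and 1 longer interval in control.

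The position against the start differed as well. An H3K27ac interval lay over the start itself at 5 of 42 members after butyrate (11.9%), namely IFNAR1, IFNGR1, IFIT5, ISG20 and EIF2AK2, and at 17 of 42 in control (40.5%). Of all genes, 12.2% had such an interval after butyrate and 33.3% in control. The shares of the members were thus near those of all genes. H3K4me3 showed no such difference, with an interval over the start at 26 members after butyrate and 25 in control.

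H3K4me1, a mark of promoter flanks, was called at 13 member promoters after butyrate (31.0%) and at 17 in control (40.5%), beside 18.1% and 30.6% of all promoters. It appeared after butyrate only at 3 of the 20 members with the mark (15.0%), against 13% of all promoters, and in control only at 7 (35.0%), against 48.6%. IFITM2 had 53.5, IFI6 47.2 and MX2 40.2 in the butyrate library. The 7 marked in control only were IRF3 with 40.9, IFNAR1 with 38.5, RSAD2 with 32.0, IFNGR2 with 28.7, ADAR with 25.7 and the shared region of PSMB9 and TAP1 with 28.6. RSAD2 was thus the only member with a control-only H3K4me1 interval and a butyrate-only H3K4me3 interval, and both lay over its start.

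The 10 members with H3K4me1 in both libraries had a median log2 ratio of -0.19, against -0.13 over all promoters, and none reached 2-fold by average signal, as 1.08% of all promoters did. Scaled on the top 10% of promoters, the members' median was 0.0075. ISG20 had the lowest ratio, with 42.4 after butyrate and 74.5 in control. By peak signal, with 49 after butyrate and 124 in control, it differed by 2-fold, as did 262 of the 3244 promoters marked in both. IRF7 had the highest ratio, with 70.6 after butyrate and 58.3 in control, but from intervals on opposite sides of the start. The control interval overlapping the butyrate one had 52.4. The next highest was USP18, with 52.3 after butyrate and 44.9 in control. At USP18 this was the only mark of the promoter. The strongest H3K4me1 region was the one that IFITM3 shares with IFITM1, with 131 after butyrate and 154 in control, in the place of their strong H3K4me3. At DHX58, IRF1, IRF5 and IRF7 the strongest H3K4me1 intervals of the libraries did not overlap, so their ratios do not compare 1 place.

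H3K27me3 reached 10 member promoters after butyrate (23.8%) and 13 in control (31.0%), beside 29.2% and 32.9% of all promoters. Of the 14 members with the mark in either library, 1 had it after butyrate only (7.14%), against 8.56% of all promoters, and 4 had it in control only (28.6%), against 18.8%. The one gained was IFI27, under a domain of 20999 bp with a signal of 9.03. Those in control only were IFITM1 with 9.65, MX2 with 7.52, IRF1 with 6.64 and IFNGR2 with 5.79. In the butyrate library a domain of 13199 bp with its summit 9944 bp after the MX2 start overlapped the control domain of 19399 bp that reached the start. The mark was thus still called at MX2 after butyrate, but outside the promoter window.

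In both libraries, 9 members had H3K27me3. IRF7 stood apart, with 10.8 after butyrate and 31.7 in control, a log2 ratio of -1.56 that lay below the 5th percentile of all promoters at -1.25. By average signal it was the only member at least 2-fold lower, as 11.6% of all promoters were, and its domain lay before the start in both libraries and also reached the promoter of CDHR5. IFITM2 had 11.0 after butyrate and 17.0 in control, in a domain that also reached the promoter of IFITM5. By peak signal IFITM2 was past 2-fold too, with 33 after butyrate and 104 in control, a log2 ratio of -1.66 against -1.49 for IRF7. By this measure 2294 of the 6270 promoters marked in both differed by 2-fold. At IRF5 the signal was 12.9 after butyrate and 12.4 in control, but the domain was 3799 bp long after butyrate and ended before the start, while the control domain of 8799 bp ran across it. Its peak signal was 25 after butyrate and 41 in control.

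The other 6 members had similar average signals under both conditions, while their peak signals were lower after butyrate in 5 and equal in OAS2. IRF8 had 11.6 after butyrate and 13.5 in control, in a domain of 31999 bp after butyrate and 30999 bp in control that held 6 CpG islands. RSAD2 had 7.96 after butyrate and 9.45 in control, and STAT2 had 7.33 after butyrate and 8.65 in control, from a domain before the start. MX1 had 7.02 after butyrate and 7.20 in control, OAS2 had 8.75 after butyrate and 7.96 in control, and IFIT2 had 4.202 after butyrate and 4.58 in control. The widest peak gaps of these 6 were at IRF8, with 30 after butyrate and 56 in control, and STAT2, with 18 after butyrate and 30 in control. The median log2 ratio of the 9 was -0.22, against -0.35 over all promoters, so relative to that shift 7 of the 9 were higher and 2 lower. With peak signal the members' median was -0.71. It was 0.14 once centred on all promoters and 0.76 with scaling on the top 10% of promoters, both opposite in sign to the unscaled value.

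CTCF was called at 16 member promoters after butyrate (38.1%) and at 17 in control (40.5%), beside 26.7% and 24.6% of all promoters. IFITM1 had it after butyrate only, with 26.3, and STAT2 with 23.2 and IFI35 with 29.9 had it in control only. That was 1 of 18 members (5.56%) in the butyrate library alone, against 17.5% of all promoters, and 2 of 18 (11.1%) in control alone, against 10.4%. None of the 15 members marked in both differed by 2-fold, as 0.912% of all promoters did, and their median log2 ratio was 0.08, against 0.03 over all promoters.

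The strongest CTCF signals stood at IRF7, with 84.7 after butyrate and 74.1 in control, SOCS1, with 79.2 after butyrate and 66.7 in control, and IFI6, with 71.5 after butyrate and 67.5 in control. The CTCF peak signal of IFI6 was 174 after butyrate and 187 in control. The 4 highest ratios were those of PSMB9 and TAP1, whose shared interval had 51.4 after butyrate and 36.3 in control, of IFIH1, with 36.7 after butyrate and 26.1 in control, and of IFNGR2, with 27.8 after butyrate and 20.2 in control. The lowest were IFNAR1, with 24.8 after butyrate and 29.7 in control, IFITM2, with 41.2 after butyrate and 49.4 in control, and IFITM3, with 50 after butyrate and 57.9 in control. CTCF ratios of average signal thus spanned less than 1 log2 unit, from -0.26 to 0.50.

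**Figure D4:**
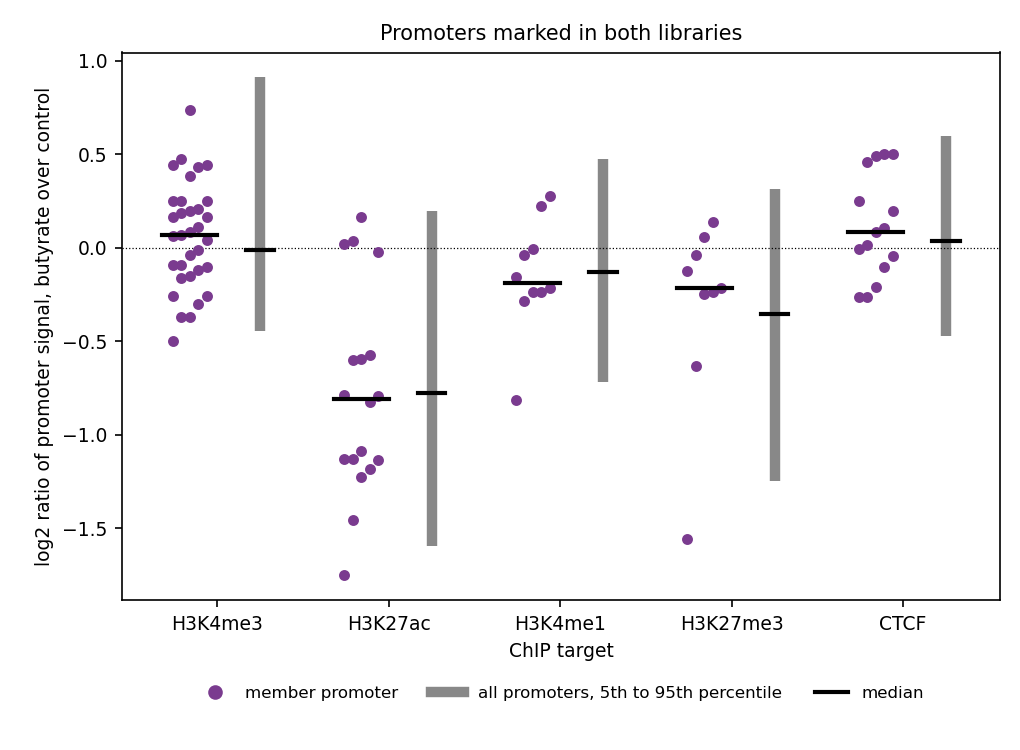
Log2 ratio of promoter signal, butyrate over control (y axis), for members marked in both libraries (dots, with their median as a line) beside the 5th to 95th percentile and median of all promoters, for each ChIP target. The H3K27ac dots centre on -0.81 and those of all promoters on -0.78, and single low dots are ADAR for H3K27ac at -1.75 and IRF7 for H3K27me3 at -1.56.

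The marks were next read together at each promoter. In control, 20 of the 42 members carried H3K4me3 with H3K27ac and no H3K27me3, the usual pattern of an active start. Of these, 16 kept it after butyrate and 4 were left with H3K4me3 alone, namely DDX58, IFIT3, HERC6 and CMPK2. Over all genes, 71.6% of such promoters kept the pattern and 27.5% were left with H3K4me3 alone. Starts with H3K4me3 alone numbered 11 of 42 members after butyrate (26.2%) and 4 in control (9.52%), beside 17.2% and 3.24% of all genes.

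A further 9 members carried H3K4me3 and H3K27me3 in control, a pattern often called bivalent, and 5 of these 9 also had H3K27ac in control (STAT2, IRF1, IRF7, MX2 and IFNGR2). After butyrate 5 of the 9 still carried H3K4me3 with H3K27me3, and these were STAT2, IRF5, IRF7, IRF8 and MX1. IRF1, IFITM1 and MX2 had H3K4me3 alone after butyrate, and IFNGR2 had H3K4me3 with H3K27ac. At IFNGR2 the H3K27ac signal was 32.1 after butyrate and 48.8 in control, so acetylation was not gained there, and the H3K4me3 of IFITM1 is the interval shared with IFITM3. Of all genes with this pattern in control, 67.4% kept it. In a window of this size both marks can lie side by side: at IRF7, IRF5 and STAT2 the H3K27me3 domain of the butyrate library ended before the start.

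RSAD2 had H3K4me3 with H3K27me3 after butyrate and H3K27me3 alone in control, as had 21.4% of all genes with H3K27me3 alone in control. IFITM2, IFIT2 and OAS2 had H3K27me3 alone under both conditions, and USP18, IFIT1, IFI44 and B2M had neither mark. IFIH1, DHX58, ISG15 and IFI6 had H3K4me3 without H3K27ac and H3K27me3 in both libraries, a pattern that 3.24% of all genes showed in control. The members without H3K4me3 were thus mostly effectors, and the receptors, sensors and factors all had it.

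A feature that the selection of genes did not use was the CpG island, a stretch of DNA rich in the CG step that many housekeeping starts hold. Of the 33 members with H3K4me3 in control, 25 had an island under the interval (75.8%), beside 92.2% of all promoters with the mark. The 8 without an island were IFIH1, DHX58, IRF9, IFIT3, ISG15, ISG20, MX2 and IFI6. Their median H3K4me3 signal was 44.0 after butyrate and 48.9 in control, and that of the 25 members with an island was 116 after butyrate and 103 in control. The 25 include IFITM1 and IFI35 through intervals that also reached the promoters of IFITM3 and RPL27. The control median is the IFI35 value, while the interval over the IFI35 start held no island. Over all promoters the values without an island were 56.9 after butyrate and 57.8 in control, and with an island 90.3 after butyrate and 92.7 in control.

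The marked intervals of the members were also short. The H3K4me3 length at a member promoter had a median of 1931.5 bp after butyrate and 1738 bp in control, against 2270.5 bp and 2346 bp over all marked promoters. It ranged up to 5152 bp after butyrate and 4276 bp in control.

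Several members lie in clusters, and neighbours in a cluster differed in their marks. On chromosome 26 the 4 IFIT genes start at 11064643 (IFIT2), 11079529 (IFIT3), 11095160 (IFIT1) and 11117506 (IFIT5), all on the plus strand. IFIT2 had a domain of H3K27me3 and nothing else, IFIT3 a weak H3K4me3 interval, IFIT1 no interval of any target, and IFIT5 a CpG island with strong H3K4me3. Of the 4 promoters, those of IFIT3 and IFIT5 thus had H3K4me3 and H3K27ac, and after butyrate H3K27ac was called at that of IFIT5 only. The IFIT5 intervals also reached the promoter of LIPA in both libraries, so they cannot be assigned to 1 of these genes. A CTCF interval of 38.2 after butyrate and 41.2 in control lay between IFIT1 and IFIT5.

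**Figure D5:**
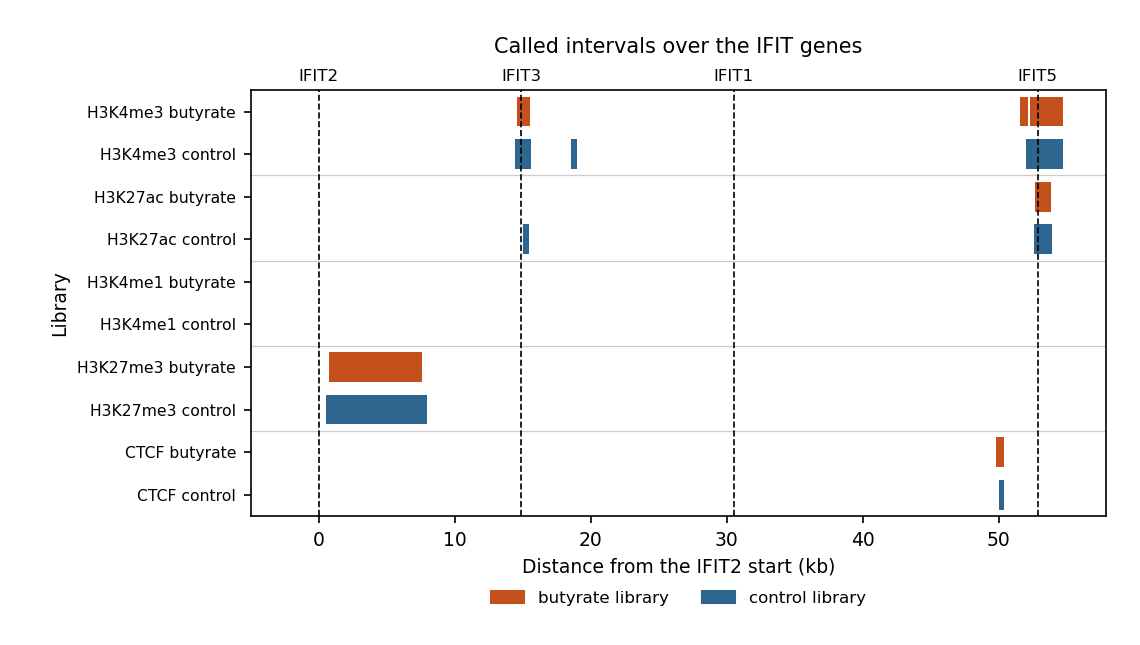
Called intervals of the 10 ChIP libraries (rows, the butyrate library above the control library for each target) against the distance from the IFIT2 start in kb (x axis), with dashed lines at the 4 gene starts. Boxes show extent only: H3K27me3 follows the IFIT2 start, H3K4me3 stands at IFIT3 and IFIT5, IFIT1 has no box, and the IFIT3 box of H3K27ac is seen in control only.

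The receptor cluster on chromosome 1 holds IFNGR2, IFNAR1 and IFNAR2, with 88729 bp between the first pair of starts and 130976 bp between the second. All 3 kept H3K4me3 and H3K27ac in both libraries. On the same chromosome MX2 and MX1 both had H3K27me3 near the start in control, and after butyrate it was called at the promoter of MX1 only. MX1 also had an H3K4me3 interval in its body, with a signal of 78.9 and its summit 6599 bp after the start in the butyrate library, and 68.0 and 5607 bp in control, which was higher than the signal at its start. RSAD2 and CMPK2, whose starts lie 12029 bp apart on chromosome 11, differed in that CMPK2 had H3K4me3 in both libraries and RSAD2 after butyrate only.

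Inside gene bodies, beyond 2 kb from the start, H3K27ac intervals of the members numbered 18 after butyrate and 10 in control. Of these, 14 overlapped no control interval and 6 overlapped no butyrate interval. The 14 lay in 9 members (21.4%), and 19.9% of all genes had such an interval. The 6 lay in 4 members (9.52%), against 15.2% of all genes with an interval in control only. The share of members with new acetylation in the body was therefore close to that of the genome.

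IFNAR1 held 4 of these butyrate-only intervals, with average signals of 16.6 to 26 and summits 6775 to 19767 bp after the start. IRF2 held 2, of 21.0 and 29.2, and 3 control-only intervals, of which the strongest had 40.9. HERC6 held 2, of 18.1 and 19.8, and had lost its promoter H3K27ac call. IFNGR2, IRF3, IRF5, IRF9, EIF2AK2 and ADAR held 1 each. The strongest H3K27ac interval in the body of any member was that of ISG20 in control, with 60.6 and its summit 12053 bp after the start. The overlapping butyrate interval of ISG20 had 22.1 and its summit 12661 bp after the start. That was below the strongest body interval of the butyrate library, the one of 29.2 in IRF2. Within the butyrate library, the butyrate-only body intervals were weaker than the promoter signal at IFNAR1, IRF2, IFNGR2, IRF9, EIF2AK2 and ADAR. At IRF3 the body interval was the stronger, with 25.7 against 23.7 at the promoter. HERC6 and IRF5 had no H3K27ac interval at the promoter after butyrate.

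Other genes of the pathway were taken from a list of 56, of which 49 had a start. Their marked shares differed from those of the members for some targets. H3K27me3 was called at 10.2% after butyrate and 12.2% in control, beside 23.8% and 31.0% of the members. H3K4me1 was called at 18.4% after butyrate and 44.9% in control, beside 31.0% and 40.5% of the members. H3K4me3 was called at 42 of 49 after butyrate (85.7%) and at 42 in control (85.7%), beside 81.0% and 78.6% of the members. Its median log2 ratio was -0.01. All 9 signaling genes were marked in both libraries. IRF4, a factor of lymphocytes, was the only one at least 2-fold higher, with 57.4 after butyrate and 26.9 in control, and none was 2-fold lower.

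H3K27ac was called at 29 of the 49 after butyrate (59.2%) and at 38 in control (77.6%). The shares were 42.9% and 59.5% for the members and 34.7% and 47.1% for all promoters. None of the 49 had it after butyrate only and 9 in control only, among them TYK2, STAT3, TLR3, TMEM173, MB21D1, NLRC5, UBA7 and PNPT1. Of all promoters with the mark, 29.2% had it in control only. Of the 29 marked in both, 10 were at least 2-fold lower, as 33.7% of all promoters were, and the median log2 ratio was -0.79. MAVS, the adaptor of the RNA sensors, had the lowest, with 25.2 after butyrate and 89.2 in control. STAT2 and TYK2 were thus without an H3K27ac call after butyrate, while JAK1 had 33.7 after butyrate and 79.7 in control.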

How the data were processed

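The study aligned reads to the cattle build UMD3.1 with BWA, kept unique alignments and called peaks with MACS2, per the labels and the study's methods. The submitters' processing notes also list Trim Galore 0.4.1, which the methods describe for other data types. H3K27me3 intervals began on a regular grid, and the tool behind them is not given in the sources used here. For the 10 ChIP libraries the deposited table listed 371758 intervals on 30 chromosomes, each with a signal (tag density) that the authors gave as a peak value and as an average over bins of about 32 bp. Neither the scaling between libraries nor the base at which coordinates begin counting is given in the sources used here. Read totals are not part of the table, and the mapping totals that the study lists were not used here, so no precision from depth is given.

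The start of a gene was computed from the summits listed beside it and their distances, for symbols listed 2 or more times with 90% of listings in accord on 1 position. Of the 42 member starts, 40 matched a RefSeq symbol or synonym, and all 40 lay on the same chromosome there. A promoter (2 kb either side) took the strongest average signal of the intervals reaching it by at least 1 bp, with no pseudocount. A body interval had its summit inside the gene and beyond the promoter. On simulated data, in which genes lay far apart and shared no interval, all 400 starts and states were recovered. This checked the code only, not how shared or differing intervals in the real data are read. The members, gene lists and comparisons were chosen with earlier results of these data known. Named genes were those marked in 1 library only, the 4 highest and 4 lowest ratios and 3 highest mean signals per target, all with H3K27me3, and those with most new H3K27ac in the body, and other members were added to account for all. A planned search for interferon motifs was not run, since no sequence of this build was used here. The alternatives were other windows, overlaps, thresholds and scalings, and peak in place of average signal. Python 3.11.15, numpy 2.4.6, pandas 2.3.3, scipy 1.17.1 and matplotlib 3.10.9 were used.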

Additional observations from a re-analysis of the deposited data

How the results depend on the processing

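Of 102 alternative values, 79 stayed close to the value given, 19 moved and 4 changed sign. The median H3K27ac log2 ratio of the members became -1.39 with peak signal, -0.031 when centred on all promoters and 0.011 when scaled on the top 10% of promoters. For H3K4me1 the median became -0.052 with a window of 5 kb, -0.061 centred and 0.0075 scaled on the top 10%, and with a window of 1 kb 8 promoters were marked after butyrate and 9 in control. For H3K27me3 the median became -0.71 with peak signal, 0.14 centred and 0.76 scaled on the top 10%, and with an overlap of 50% 5 promoters were marked after butyrate and 8 in control. Without the lowest 25% of intervals by peak signal, 9 butyrate-only H3K27ac intervals remained in the bodies. The cause of these differences was not tested. No paired analysis was possible because each target had 1 library per condition, and for the same reason no replicate could be left out. The read totals that the study lists were not used here, and the part of depth in a weak interval called in 1 library only, such as that of IFIT3, was not tested.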
